A study of Mus musculus with 21 samples.

Results

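The 10 inhibitory receptor genes of B cells were examined, namely Cd72, Cd22, Fcgr2b, Siglecg, Btla, Lair1, Pirb, Cd300lf, Fcrl1 and Fcrl5. They were taken by name from a table of 23337 genes and followed across all 9 combinations of tissue and cell kind. Each of the 10 had a row, with Pirb listed under Lilrb3, a symbol that RefSeq gives for the same gene, and each passed the filter on low counts in every fit. The counts are from bulk RNA sequencing. The sorted B cells came from Peyer's patches (PP, the lymphoid follicles of the gut wall), mesenteric lymph nodes (mLN) and spleen (Spl), and the study's title names self-reactive B cells.

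All libraries came from C57BL/6 mice of 8 to 12 weeks. In each tissue there were 3 libraries of BCL2 HEL pos cells (numbered 922, 926 and 950), 3 libraries of HEL pos cells (1 pool and the numbers 392 and 399) and 1 pooled library of HEL neg cells, which makes 21 libraries. The labels do not expand BCL2 or HEL, name no promoter or transgene and do not say whether a number stands for a single mouse. The spread between libraries of a group, on which every p-value rests, may therefore be technical in part.

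Depth was 5475131 to 11340876 counts per library, with 12747 to 18206 genes detected. The summed counts of 8 B cell markers came to 9439 to 21800 CPM (counts after scaling each library to the same total), so the sorted cells carried the transcripts that define their label. The sum of Y-linked transcripts did not exceed 0.869 CPM in libraries 392 and 399 of HEL pos cells in any tissue. It was 92.3 to 168 CPM in all other libraries, the HEL neg pools among them. Comparisons of HEL pos cells with BCL2 HEL pos cells or with HEL neg cells therefore also differ in this respect. Xist, the transcript of X inactivation, was present in all 21 libraries at 79.3 to 608 CPM, so libraries with Y-linked transcripts carried both. The labels do not give sex. Among the PP HEL pos libraries the pool and 399 had the most detected genes (18206 and 14964). Receptor calls that rest on them were tried without them as well. Some libraries kept in other groups had more than 399, such as the spleen HEL pos pool (16283). Without the pool and 399 only library 392 is left in that group, so a call lost there may reflect the missing replicates.

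Inhibitory receptors dampen the signal of the B cell antigen receptor. Most carry a short tyrosine motif in their tail, called ITIM, which the kinase Lyn phosphorylates and which then recruits the phosphatases SHP-1 (Ptpn6) and SHIP-1 (Inpp5d). Cd22 and Siglecg are lectins that bind sialic acid on neighbouring glycoproteins, Fcgr2b binds the constant part of IgG in immune complexes, and Cd72 binds the semaphorin Sema4d. Btla binds the tumour necrosis factor receptor relative Tnfrsf14, Pirb binds MHC class I molecules, Lair1 binds collagens and Cd300lf binds lipids of dying cells. Fcrl1 and Fcrl5 are Fc receptor relatives of B cells, and Fcrl1 is known mainly as an activating receptor, so its place in the group is a matter of family. Loss of Cd22, Siglecg, Fcgr2b or Cd72 is known to lower the threshold of B cell activation in mice.

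In the GENCODE M21 annotation of mm10, Cd22 at chr7:30865402-30880342, Siglecg at chr7:43408204-43418358, Lair1 at chr7:4003402-4063204 and Pirb at chr7:3711409-3720391 lie on the same chromosome. Fcrl1 at chr3:87376387-87402934 and Fcrl5 at chr3:87435773-87500678 are neighbours on another. The others are Cd72 at chr4:43446462-43454628, Fcgr2b at chr1:170958617-170976547, Btla at chr16:45224315-45257670 and Cd300lf at chr11:115116214-115133992.

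The stretch around the start of transcription was searched for 7 short motifs of factors active in B cells, on both strands, in 11 RefSeq windows of the 10 genes (GRCm38.p6, 250 bases before to 50 after the start, with 2 starts for Siglecg). The PU.1 box GAGGAAGT, named for a factor of the B cell and myeloid lineages, lay in the windows of Cd72, Btla, Pirb, Cd300lf and Fcrl1, and in 3.2% of 32851 promoter windows of the same length. The AP-1 site TGANTCA lay in the windows of Fcrl1 and Fcrl5 (7.81% of all windows), the E-box CAGCTG in that of Btla (16.3%) and the NFAT core TTTTCC in those of Fcgr2b and of the first Siglecg start (23.4%). The octamer ATTTGCAT (1.74%), the NR4A site AAAGGTCA (1.51%) and the EGR site GCGTGGGCG (0.612%) were found in no window of the 10 genes. A match describes letters only, and binding was not measured. The windows of 5 genes are printed, Cd72 and Cd300lf for their higher level in Peyer's patches and Pirb, Cd22 and Fcgr2b for their lower level outside the spleen in HEL pos cells, with the PU.1 box in capitals where there is one. In Cd72 the capitals show the box as read from the opposite strand.
Cd72, chr4:43454577-43454876, minus strand: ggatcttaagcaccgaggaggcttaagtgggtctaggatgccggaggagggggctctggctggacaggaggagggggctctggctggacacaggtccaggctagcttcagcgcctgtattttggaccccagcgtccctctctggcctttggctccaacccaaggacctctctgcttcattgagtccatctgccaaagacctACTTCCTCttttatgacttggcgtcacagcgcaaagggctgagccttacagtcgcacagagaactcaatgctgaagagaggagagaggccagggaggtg
Pirb, chr7:3720333-3720632, minus strand: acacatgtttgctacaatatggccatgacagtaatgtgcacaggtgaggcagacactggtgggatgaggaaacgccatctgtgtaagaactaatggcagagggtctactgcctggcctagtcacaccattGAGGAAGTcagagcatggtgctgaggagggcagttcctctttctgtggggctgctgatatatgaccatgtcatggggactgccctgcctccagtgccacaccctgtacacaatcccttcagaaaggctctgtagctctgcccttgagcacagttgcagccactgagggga
Cd300lf, chr11:115133943-115134242, minus strand: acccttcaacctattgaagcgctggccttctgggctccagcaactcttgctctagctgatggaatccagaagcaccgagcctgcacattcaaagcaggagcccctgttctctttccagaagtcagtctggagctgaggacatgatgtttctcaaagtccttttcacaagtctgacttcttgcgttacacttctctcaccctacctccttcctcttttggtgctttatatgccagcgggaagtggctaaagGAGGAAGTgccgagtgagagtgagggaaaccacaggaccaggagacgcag
Cd22, chr7:30878979-30879278, minus strand: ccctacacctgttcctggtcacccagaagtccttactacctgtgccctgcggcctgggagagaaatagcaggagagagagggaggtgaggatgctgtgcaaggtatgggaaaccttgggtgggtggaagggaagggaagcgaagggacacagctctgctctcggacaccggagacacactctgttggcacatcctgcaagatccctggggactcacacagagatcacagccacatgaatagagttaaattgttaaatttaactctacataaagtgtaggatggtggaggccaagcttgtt
Fcgr2b, chr1:170976022-170976321, minus strand: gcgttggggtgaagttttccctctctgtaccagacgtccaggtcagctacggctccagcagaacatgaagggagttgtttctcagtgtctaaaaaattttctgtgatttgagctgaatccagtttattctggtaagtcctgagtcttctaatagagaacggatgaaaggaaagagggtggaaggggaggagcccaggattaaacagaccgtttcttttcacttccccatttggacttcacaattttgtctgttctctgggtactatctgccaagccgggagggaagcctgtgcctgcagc
The Cd22 and Fcgr2b windows hold none of the PU.1, octamer, AP-1, E-box, NR4A or EGR letters searched.

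Averaged over the 21 libraries and per kilobase of exon, Fcrl1 was the most abundant of the 10 (225 CPM per kilobase), followed by Cd22 (196), Siglecg (158), Cd72 (154) and Btla (116). Fcgr2b followed at 52.4 CPM per kilobase, and Fcrl5 (15.7), Pirb (8.93), Cd300lf (8.71) and Lair1 (1.09) were scarce. Siglecg and Cd72, and likewise Pirb and Cd300lf, lie closer to each other than the spread between libraries, which over all 21 was 32.3% for Cd72 and 107% for Cd300lf as the SD in percent of the mean. Fcrl1 and Cd22 also lie closer than the spread of Cd22 (25.6%), and their order differed between groups. In spleen HEL pos cells the means were 268 CPM per kilobase for Siglecg, 239 for Cd22 and 236 for Fcrl1. In PP HEL pos cells they were 137, 149 and 216 CPM per kilobase. The scarce receptors varied most between groups. Among the 6 groups of 3 libraries, the highest mean in CPM was 11.9 times the lowest for Cd300lf and 8.24 times for Lair1, against 2.2 times for Cd22 and 1.27 times for Fcrl1. The plot of CPM by tissue and cell kind shows all 21 values of each gene.

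**Figure D1:**
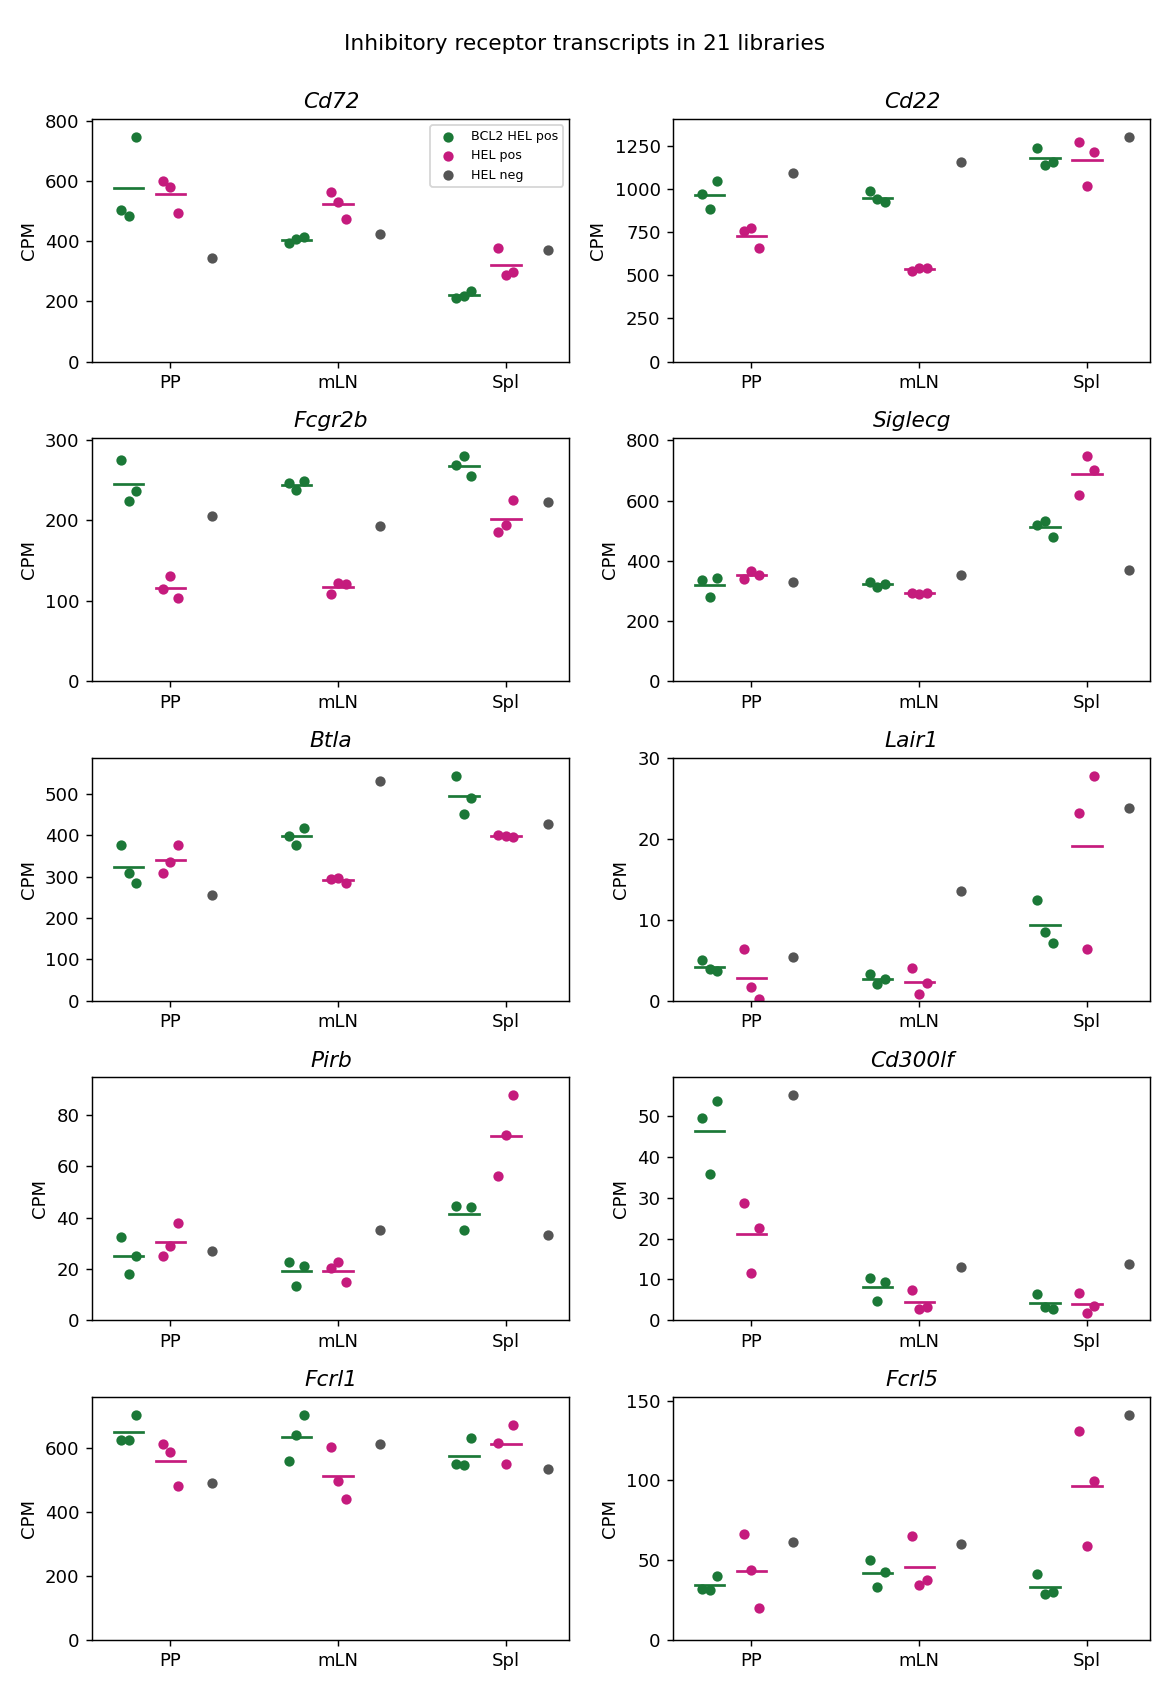
Level of each receptor transcript in CPM of scaled library totals (vertical axis, from 0) in Peyer's patch, mesenteric node and spleen libraries. Points are single libraries of BCL2 HEL pos, HEL pos and HEL neg cells, and lines are means of 3 libraries. Siglecg and Pirb stand highest in spleen HEL pos cells (means of 689 and 72.0 CPM), and Cd300lf is high in Peyer's patches in all 3 kinds of cells.

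In HEL pos cells most receptors were lower in the gut-associated tissues than in the spleen. Against spleen, PP cells had lower Siglecg, Fcgr2b, Cd22, Pirb, Lair1 and Fcrl5 and higher Cd72 and Cd300lf, and mLN cells had lower Siglecg, Cd22, Fcgr2b, Btla, Pirb, Lair1 and Fcrl5 and higher Cd72. Of the 10 genes, 2 were called higher and 6 lower in PP against spleen, where 7.94% of 11419 genes were called higher and 7.43% lower. In mLN against spleen 1 was called higher and 7 lower, beside 12.9% and 11.5% of all genes. A gene was called at an adjusted p under 0.05 in edgeR's quasi-likelihood test with Benjamini-Hochberg adjustment over all genes. The median log2 fold change of the 10 was -0.70 in PP and -0.93 in mLN, against medians over all genes of 0.02 and -0.01. Both comparisons share the 3 spleen libraries. Between PP and mLN HEL pos cells, 2 receptors were called, Cd22 and Cd300lf, both higher in PP, where 5.34% of all genes were called higher. In bulk RNA, fewer cells of a type and less RNA per cell cannot be told apart.

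BCL2 HEL pos cells had fewer called receptors. In PP against spleen Cd72 and Cd300lf were higher and Siglecg and Btla lower, so 2 of 10 were called in each direction, beside 4.81% of all genes called higher and 2.53% lower. In mLN against spleen Cd72 was higher and Siglecg and Pirb were lower, 1 and 2 of 10, beside 5.77% and 4.23% of all genes. These 2 comparisons also share their spleen libraries. Between PP and mLN only Cd300lf was called, higher in PP, beside 0.806% of all genes called higher. A call in 1 kind of cells and not in the other does not show that they differ, and the difference itself was tested for each gene. For mLN against spleen 1 of 10 differences was called, that of Cd22, and 0.385% of all genes. For PP against spleen and for PP against mLN 0 of 10 were called by edgeR, beside 0.00876% of all genes in each. At an unadjusted p under 0.05 there were 5 and 2, and DESeq2 called 1 and 0.

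**Figure D2:**
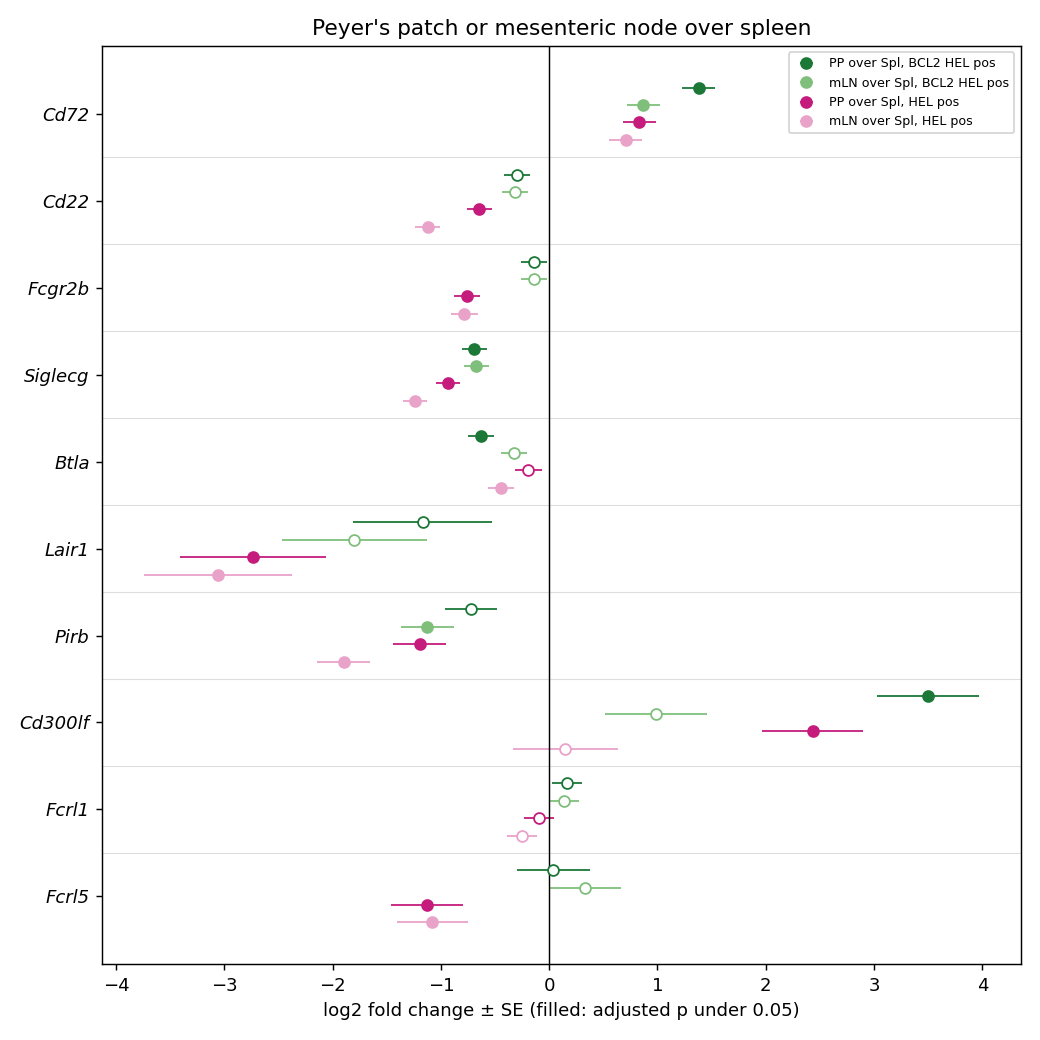
Log2 fold change (horizontal axis, with SE) of each receptor in Peyer's patch or mesenteric node over spleen, in BCL2 HEL pos cells (greens) and HEL pos cells (pinks). Filled points passed an adjusted p under 0.05 in edgeR. Cd72 lies right of 0 and Siglecg left of 0, filled in all 4 comparisons, while Cd22 and Fcgr2b are filled in HEL pos cells only, and only the mLN difference for Cd22 was called between the kinds of cells.

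Siglecg, the lectin that restrains antigen receptor signals in B cells, was the receptor most steadily lower outside the spleen. In HEL pos cells it stood at 339, 366 and 351 CPM in PP and 293, 289 and 292 CPM in mLN, against 619, 747 and 702 CPM in spleen (pool, 392, 399). The values with BCL2 were 336, 279 and 342 CPM in PP and 329, 314 and 324 CPM in mLN, against 519.8, 532 and 479.6 CPM in spleen (922, 926, 950). Every PP and mLN library was below every spleen library of its kind of cells. The log2 fold changes were -0.93 ± 0.11 (SE; edgeR adjusted p 1.34e-05) for PP and -1.24 ± 0.11 (1.28e-07) for mLN in HEL pos cells. With BCL2 they were -0.69 ± 0.11 (edgeR adjusted p 0.000504) and -0.67 ± 0.11 (0.000528). All 4 calls held in every alternative tried. HEL neg pools had 331 CPM of it in PP and 351 CPM of it in mLN, against 369 CPM in spleen, a log2 ratio of -0.16 and -0.07, while the HEL pos pools had -0.87 and -1.08.

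Cd22, the other sialic acid lectin, fell in both gut-associated tissues of HEL pos cells and lay lowest in mLN. The values were 758, 772 and 658 CPM in PP and 525, 542 and 540.4 CPM in mLN, against 1272, 1019 and 1216 CPM in spleen. The groups did not overlap, with mLN below PP and PP below spleen in every library. PP against spleen gave a log2 fold change of -0.64 ± 0.12 (edgeR adjusted p 0.000818), and mLN against spleen -1.12 ± 0.12 (7.38e-07). PP exceeded mLN by 0.48 ± 0.12 (0.0164), a call lost without the mLN library 392 (0.48, 0.0639) and without the HEL pos pools (0.45, 0.066). That call was also lost without the PP libraries Pool and 399 (0.54), a fit with only PP library 392 left in that group.

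BCL2 HEL pos cells had more Cd22 in mLN than HEL pos cells did. Their values were 968, 885 and 1044 CPM in PP and 990.0, 939 and 921 CPM in mLN, against 1238, 1137 and 1155 CPM in spleen. Relative to spleen the log2 fold change was -0.30 ± 0.12 in PP (edgeR adjusted p 0.15) and -0.31 ± 0.12 in mLN (0.102), neither called by edgeR, while DESeq2 called mLN (-0.31, adjusted p 0.0255). The mLN to spleen difference was 0.81 ± 0.17 higher in BCL2 HEL pos than in HEL pos cells on the log2 scale (edgeR adjusted p 0.0331). That call was lost in 11 of 12 fits that each left out 1 library (0.77 to 0.92, adjusted p up to 0.115), every one except that without the spleen library 392, and without the HEL pos pools (0.76, 0.0858), with the same direction throughout. In the HEL neg pools Cd22 was 1089 CPM in PP and 1158 CPM in mLN, against 1302 CPM in spleen.

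Fcgr2b, which couples IgG immune complexes to SHIP-1, followed a like course in HEL pos cells. It measured 115, 131 and 103 CPM in PP and 108, 122 and 121 CPM in mLN, against 185, 194 and 226 CPM in spleen. All gut-associated libraries were below all spleen libraries. On the log2 scale the change was -0.76 ± 0.12 in PP (edgeR adjusted p 0.000212) and -0.78 ± 0.12 in mLN (5.75e-05). Libraries with BCL2 had 276, 224 and 236 CPM in PP and 246, 237 and 249 CPM in mLN, against 269, 279.6 and 255 CPM in spleen, with overlap between PP and spleen. Both log2 fold changes were -0.14 ± 0.12 (edgeR adjusted p 0.599 and 0.545). The difference between the kinds of cells came to 0.62 ± 0.17 for PP (edgeR adjusted p 0.263) and 0.64 ± 0.17 for mLN (0.119), neither called, while DESeq2 called both (adjusted p 0.0449 and 0.0139).

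Cd72, the C-type lectin that binds Sema4d, went the other way. HEL pos cells had 600.2, 581 and 495 CPM in PP and 565, 532 and 476 CPM in mLN, against 379, 288 and 299.6 CPM in spleen. Their counterparts with BCL2 had 504, 485 and 749 CPM in PP and 394, 409 and 413 CPM in mLN, against 210.5, 217 and 236 CPM in spleen. No gut-associated library overlapped with spleen in either kind of cells. The log2 fold change in HEL pos cells was 0.83 ± 0.15 for PP (edgeR adjusted p 0.000801) and 0.71 ± 0.15 for mLN (0.0015), and in BCL2 HEL pos cells 1.38 ± 0.15 (7.6e-06) and 0.87 ± 0.15 (0.000798). All 4 calls held in every alternative tried. The HEL neg pools held 346 CPM of it in PP and 423 CPM in mLN, against 372 CPM in spleen. On the opposite strand Tesk1 covers 51.4% of the Cd72 exon bases, and whether the counting used strand is not known. Tesk1 had 5.57 to 23.1 CPM and was called in none of the 14 comparisons.

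Pirb, the receptor for MHC class I, stood highest in the spleen of HEL pos cells. It measured 24.8, 29.1 and 38.0 CPM in PP and 20.2, 22.5 and 15.1 CPM in mLN, against 56.3, 72.0 and 87.7 CPM in spleen. The spleen libraries were above all others. This gave log2 fold changes of -1.20 ± 0.24 in PP (edgeR adjusted p 0.00168) and -1.90 ± 0.25 in mLN (7.46e-06). With BCL2, Pirb measured 32.4, 18.1 and 25.0 CPM in PP and 22.6, 13.2 and 21.3 CPM in mLN, against 44.6, 34.97 and 44.2 CPM in spleen. Only mLN was called, at -1.12 ± 0.25 (edgeR adjusted p 0.00487), and PP gave -0.72 ± 0.24 (0.0761). Near-identical genes of the same family have rows of their own, among them Lilra6 (8.53 CPM on average) and Pira2 (5.69), so reads may be split between them and the Pirb level is uncertain.

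Lair1, the collagen receptor, was scarce in the gut-associated libraries. In HEL pos cells it measured 6.42, 1.65 and 0.169 CPM in PP and 4.02, 0.815 and 2.13 CPM in mLN, against 23.2, 6.35 and 27.9 CPM in spleen. A count of 3 corresponds to 0.259 to 0.507 CPM, and the lowest PP value, that of 399, was a single count. The PP pool lay above spleen library 392, while mLN did not overlap with spleen. Lair1 changed by -2.73 ± 0.68 on the log2 scale in PP (edgeR adjusted p 0.00803) and by -3.06 ± 0.68 in mLN (0.00204). BCL2 HEL pos cells had 4.98, 3.96 and 3.63 CPM in PP and 3.35, 2.06 and 2.66 CPM in mLN, against 12.4, 8.45 and 7.12 CPM in spleen. These gave -1.17 ± 0.64 (edgeR adjusted p 0.337) and -1.80 ± 0.67 (0.0987), neither called. The mLN difference was called at the same fold by DESeq2 (adjusted p 0.048) and by edgeR with no filter on low counts (adjusted p 0.00084).

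Myeloid cells also express Lair1 and Pirb, and their markers differed between the same tissues. The summed level of 14 macrophage and monocyte markers was 18.3 to 32.2 CPM in PP and 17.0 to 31.2 CPM in mLN, against 36.2 to 84.9 CPM in spleen HEL pos libraries, with 1 to 9 of the 14 at 0 in PP and mLN and 1 to 2 at 0 in spleen. For 8 granulocyte markers it was 0.89 to 8.42 CPM in PP and 0.867 to 2.22 CPM in mLN, against 57.2 to 183 CPM in spleen, with 3 to 7 of the 8 at 0 in PP and mLN and 0 at 0 in spleen. With BCL2 the granulocyte sum was 0.705 to 2.28 CPM in all 3 tissues, and each spleen library was above each PP and mLN library for Lair1 and for Pirb. Their macrophage and monocyte sum was 44.1 to 59.1 CPM in PP and 26.0 to 44.8 CPM in mLN, against 45.6 to 81.7 CPM in spleen. The part of these cells in the Lair1 and Pirb results was not tested.

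Fcrl5, an Fc receptor relative found on marginal zone B cells in mice, fell outside the spleen of HEL pos cells with a wide spread. It measured 66.2, 43.4 and 19.6 CPM in PP and 65.0, 34.6 and 37.6 CPM in mLN, against 131, 58.9 and 99.9 CPM in spleen. Both pools lay above spleen library 392. Its log2 fold change was -1.13 ± 0.33 for PP (edgeR adjusted p 0.0239) and -1.08 ± 0.33 for mLN (0.0189). The PP call was lost without PP 399 (-0.78, 0.112), without spleen 399 (-1.10, 0.0616) and without the spleen pool (-0.87, 0.12). That call was also lost without the PP pool and 399 together (-1.15), a fit with only PP library 392 left in that group. The mLN call was lost without spleen 399 (-1.05, 0.0521), the spleen pool (-0.82, 0.108), mLN 392 (-0.93, 0.095) or mLN 399 (-0.98, 0.087). Among BCL2 HEL pos libraries the tissues overlapped, with 31.9, 31.1 and 39.7 CPM in PP and 50.2, 33.4 and 42.3 CPM in mLN, against 41.1, 28.7 and 29.7 CPM in spleen.

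Btla and Fcrl1 varied least. Btla, the partner of Tnfrsf14, had 309 to 376 CPM in PP and 283 to 298 CPM in mLN, against 397 to 401 CPM in spleen HEL pos cells, and mLN was lower by -0.45 ± 0.12 on the log2 scale (edgeR adjusted p 0.00901). BCL2 HEL pos cells had 285 to 377 CPM in PP, against 452 to 544 CPM in spleen, a log2 fold change of -0.63 ± 0.12 (edgeR adjusted p 0.00227). Fcrl1 was called in 0 of the 14 comparisons by edgeR, at an unadjusted p under 0.05 in 1, and by DESeq2 in 0. Its libraries ranged from 439 to 702 CPM.

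Cd300lf, which binds lipids exposed on dying cells, was high in PP of every kind of cells. With BCL2 it measured 49.5, 35.7 and 53.7 CPM in PP and 10.3, 4.72 and 9.39 CPM in mLN, against 6.35, 3.24 and 2.69 CPM in spleen. In HEL pos cells it measured 28.8, 11.7 and 22.6 CPM in PP and 7.42, 2.75 and 3.20 CPM in mLN, against 6.60, 1.70 and 3.39 CPM in spleen. The HEL neg pools had 55.2 CPM in PP and 13.1 CPM in mLN, against 13.8 CPM in spleen. In each kind of cells every PP library was above every mLN and spleen library.

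The log2 fold change of Cd300lf in PP over spleen was 3.50 ± 0.47 in BCL2 HEL pos cells (edgeR adjusted p 6.94e-05) and 2.43 ± 0.47 in HEL pos cells (0.00113). In PP over mLN it was 2.51 ± 0.44 (edgeR adjusted p 0.00557) and 2.28 ± 0.46 (0.00393). The HEL pos calls were lost without the PP libraries Pool and 399 (1.54 and 1.41), a fit with only PP library 392 left in that group. The BCL2 HEL pos call over mLN was lost without mLN 926 (2.23, 0.0668). The difference of PP from spleen was 1.06 ± 0.64 larger in BCL2 HEL pos than in HEL pos cells on the log2 scale and was not called (edgeR adjusted p 0.626).

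Some other measurements are given beside Cd300lf. The gene lies wholly within Rab37, a vesicle transport gene on the opposite strand, with 0 shared exon bases. Rab37 measured 61.8, 44.1 and 35.1 CPM in PP of BCL2 HEL pos cells, against 13.6, 7.06 and 3.22 CPM in their spleen. Its log2 fold change there was 2.55 ± 0.43 (edgeR adjusted p 0.00065), and 1.06 ± 0.41 in HEL pos cells (0.0847). For PP over mLN the Rab37 log2 fold change was 1.82 ± 0.41 in BCL2 HEL pos cells (edgeR adjusted p 0.0307) and 1.455 ± 0.412 in HEL pos cells (0.0314). Transcripts of 11 enterocyte markers summed to 39.3 to 184 CPM in PP of BCL2 HEL pos cells, 252 to 1111 CPM in PP of HEL pos cells and 1304 CPM in the PP HEL neg pool, against 12.7 to 71.3 CPM elsewhere, with 0 of the 11 at 0 in PP and 4 to 9 at 0 elsewhere. Cd300lf was higher in every PP BCL2 HEL pos library than in every PP HEL pos library, and the enterocyte sum was lower in each. That difference in Cd300lf, 1.10 ± 0.41 on the log2 scale, was not called (edgeR adjusted p 0.0926). The PP HEL neg pool was the highest library in both, with 55.2 CPM of Cd300lf and an enterocyte sum of 1304 CPM. Macrophage and monocyte markers were 44.1 to 59.1 CPM in PP of BCL2 HEL pos cells, against 45.6 to 81.7 CPM in their spleen. How far reads from Rab37 or from other cells enter the Cd300lf counts was not tested.

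**Figure D3:**
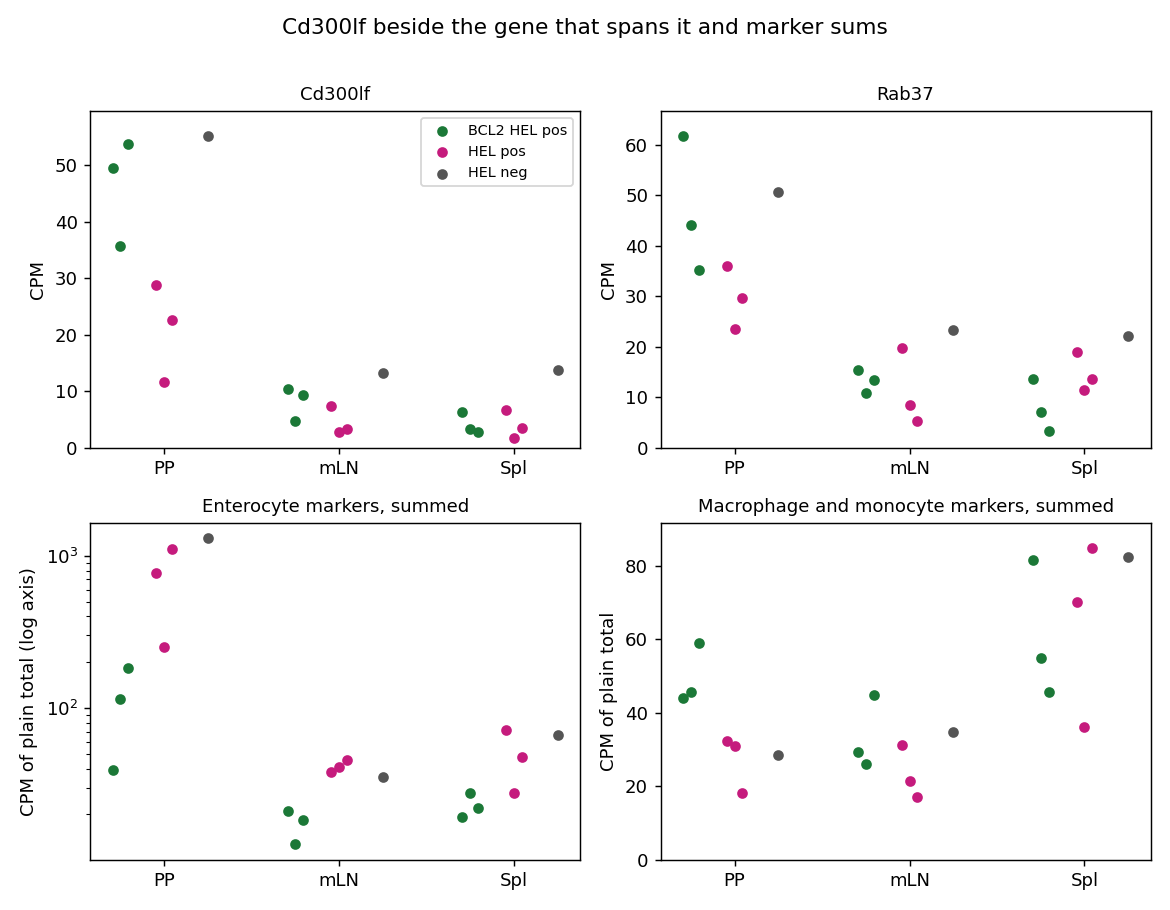
Levels of Cd300lf and of Rab37, the gene that spans it, in CPM of scaled totals (upper panels), and summed enterocyte and macrophage or monocyte markers in CPM of plain totals (lower panels, enterocytes on a log axis). Points are single libraries by tissue and kind of cells. Cd300lf and Rab37 are both highest in Peyer's patches, and the enterocyte sum there is lowest in BCL2 HEL pos cells (39.3 to 184 CPM).

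Within a tissue, BCL2 HEL pos cells were compared with HEL pos cells. In PP, Cd22 and Fcgr2b were higher, 2 of 10 beside 5.33% of all genes called higher. In mLN, Cd22, Fcgr2b and Btla were higher, 3 of 10 beside 5.78%. In spleen 1 was higher, Fcgr2b, beside 4.55%, and 4 were lower, Cd72, Siglecg, Pirb and Fcrl5, beside 4.82%. The median log2 fold change of the 10 was 0.10 in PP, 0.27 in mLN and -0.25 in spleen, against -0.02, -0.01 and 0 over all genes.

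Fcgr2b was about 2-fold higher with BCL2 in both gut-associated tissues. The mean in PP was 245 ± 27.0 CPM in BCL2 HEL pos cells and 116 ± 14.3 CPM in HEL pos cells (SD, n = 3 each), and in mLN 244 ± 6.14 CPM and 117 ± 7.75 CPM (SD, n = 3 each). The groups did not overlap. That is a log2 fold change of 1.04 ± 0.12 in PP (edgeR adjusted p 2.71e-05) and 1.07 ± 0.12 in mLN (1.42e-05), and both calls held in every alternative tried. The part of the difference in Y-linked transcripts was not tested. In spleen the mean was 268 ± 12.2 CPM in BCL2 HEL pos cells and 201 ± 21.3 CPM in HEL pos cells (SD, n = 3 each), a log2 fold change of 0.43 ± 0.12 (edgeR adjusted p 0.0284). That call was lost without any 1 of 922, 926, 950, 392 or the pool (0.34 to 0.44, adjusted p 0.0671 to 0.128), without all HEL pos pools (0.34, 0.118) and with no filter on low counts (0.42, 0.0804).

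Cd22 was higher in mLN of BCL2 HEL pos cells, at 950.1 ± 35.7 CPM against 536 ± 9.24 CPM in HEL pos cells (SD, n = 3 each), a log2 fold change of 0.83 ± 0.12 (edgeR adjusted p 0.000124) that held in every alternative tried. In PP it was 966 ± 79.3 CPM against 729 ± 62.2 CPM (SD, n = 3 each), or 0.37 ± 0.12 (edgeR adjusted p 0.0489). The PP call was lost in 7 of 11 alternatives, among them those without PP 922 (0.38, 0.0939), 950 (0.32, 0.124) or 399 (0.31, 0.166) and without the HEL pos pools (0.39, 0.0528). Another was that without the PP pool and 399 together (0.33), with only PP library 392 left in the HEL pos group. Btla in mLN was 398 ± 20.5 CPM against 292 ± 7.40 CPM (SD, n = 3 each), or 0.45 ± 0.12 (edgeR adjusted p 0.0179), a call lost without 922 (0.45, 0.057), 950 (0.44, 0.0666), 392 (0.46, 0.0637) or 399 (0.45, 0.062).

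In spleen Fcrl5 was 33.2 ± 6.89 CPM in BCL2 HEL pos cells and 96.6 ± 36.2 CPM in HEL pos cells (SD, n = 3 each). The groups did not overlap, and the log2 fold change of -1.53 ± 0.34 (edgeR adjusted p 0.00549) held in every alternative tried. The calls of the other 3 lower receptors of spleen were each lost when any of several single libraries was left out. Cd72 was 221 ± 13.2 CPM in BCL2 HEL pos cells and 322 ± 49.8 CPM in HEL pos cells (SD, n = 3 each; -0.53 ± 0.15, edgeR adjusted p 0.0325), and its call was lost without any 1 of 922, 926, 950, 399 or the pool (-0.60 to -0.42, adjusted p 0.0519 to 0.117) and without all HEL pos pools (-0.42, 0.101). Siglecg was 511 ± 27.6 CPM and 689 ± 65.3 CPM (SD, n = 3 each; -0.42 ± 0.11, edgeR adjusted p 0.0217), and its call was lost without any 1 of 922, 926, 950, 392 or 399 (-0.45 to -0.38, adjusted p 0.0558 to 0.08) and with no filter on low counts (-0.42, 0.0752). Pirb was 41.2 ± 5.44 CPM and 72.0 ± 15.7 CPM (SD, n = 3 each; -0.79 ± 0.24, edgeR adjusted p 0.039), and its call was lost without any 1 of the same 5 libraries (-0.86 to -0.61, adjusted p 0.0745 to 0.189). Granulocyte markers, 0.709 to 2.28 CPM in BCL2 HEL pos and 57.2 to 183 CPM in HEL pos spleen, differed in the same direction as Pirb, and their part was not tested.

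**Figure D4:**
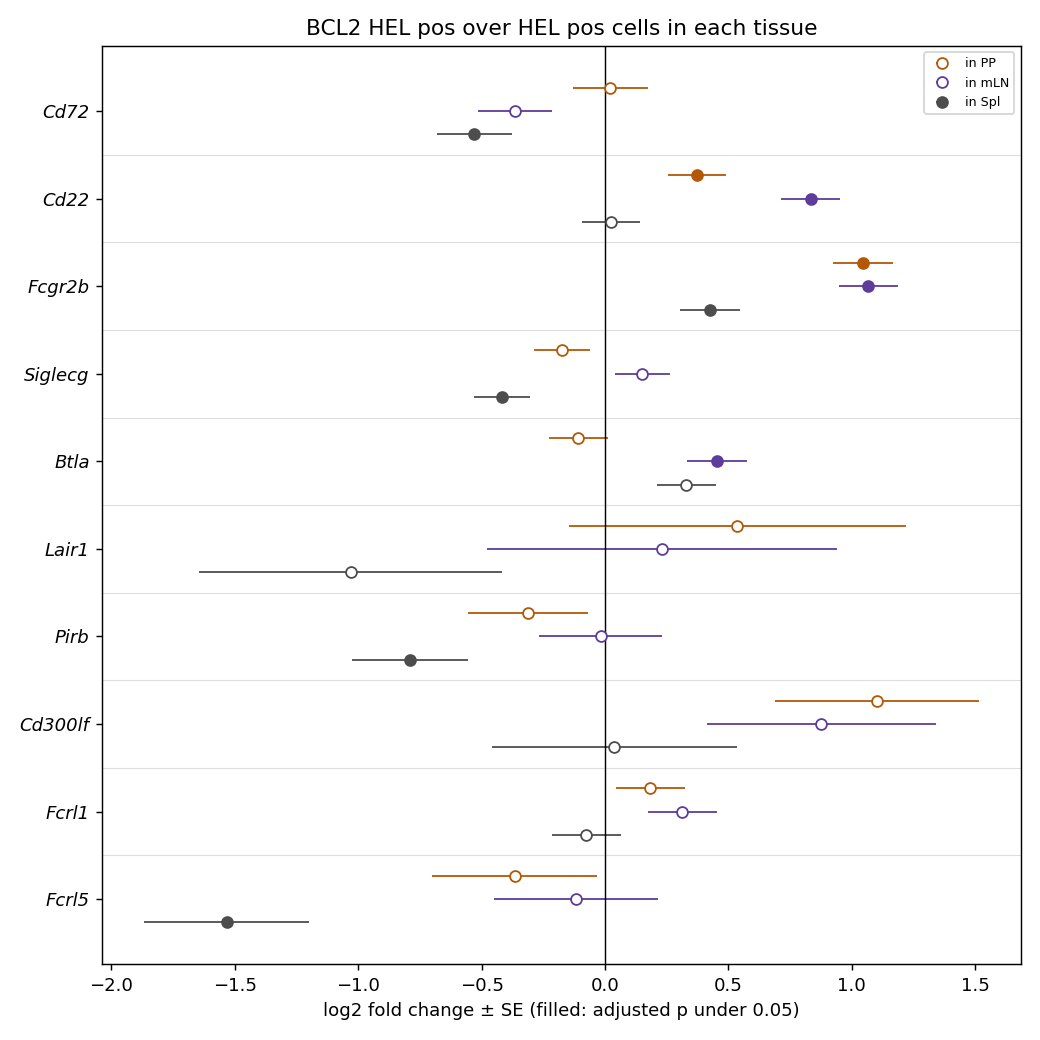
Log2 fold change (horizontal axis, with SE) of each receptor in BCL2 HEL pos over HEL pos cells within Peyer's patches, mesenteric nodes and spleen. Filled points passed an adjusted p under 0.05 in edgeR. Fcgr2b lies near 1 in both gut-associated tissues, and Fcrl5 lies at -1.53 in spleen.

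HEL neg cells have 1 pool per tissue, so both other kinds were compared with them over all tissues, with tissue as a term in the fit, and the 2 comparisons share these pools. HEL pos cells had lower Cd22, Fcgr2b and Cd300lf than HEL neg cells, 3 of 10 beside 5.22% of 11406 genes called lower. The log2 fold changes were -0.63 ± 0.15 for Cd22 (edgeR adjusted p 0.0168), -0.57 ± 0.13 for Fcgr2b (0.0175) and -1.57 ± 0.35 for Cd300lf (0.0134). Cd22 lay below the HEL neg pool in all 9 HEL pos libraries, and Cd300lf likewise. Fcgr2b lay below it in all but the spleen library 399. Each call was lost without the PP HEL neg pool (adjusted p 0.0949, 0.191 and 0.0885) or the mLN HEL neg pool (0.236, 0.154 and 0.0855), where the log2 fold changes were -0.66, -0.43 and -1.67, and -0.37, -0.49 and -1.57. With only the pooled libraries none of the 3 was called (-0.54, -0.63 and -0.92). The fit averages over tissues, and the log2 ratio of the HEL pos to the HEL neg pool varied between them. For Cd22 it was -0.52 in PP, -1.14 in mLN and -0.03 in spleen, and for Fcgr2b -0.84, -0.83 and -0.27. Siglecg (0.03, -0.26 and 0.75) and Pirb (-0.11, -0.79 and 0.76), not called, changed sign between tissues. Cd300lf had -0.94, -0.82 and -1.06. With 1 pool each these ratios have no replicate check.

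Markers of other cells differed between the kinds of cells as well. The summed level of 8 dendritic cell markers was 4.24 to 13.6 CPM in BCL2 HEL pos and 5.75 to 24.1 CPM in HEL pos libraries, against 34.3 to 63.5 CPM in the HEL neg pools, with 1 to 3 of the 8 at 0 in BCL2 HEL pos and HEL pos libraries and 0 at 0 in HEL neg pools. For 13 T and NK cell markers the sum in PP was 8.73 to 10.5 CPM in BCL2 HEL pos and 33.4 to 41.3 CPM in HEL pos libraries, against 92.8 CPM in the HEL neg pool. In mLN it was 10.5 to 13.6 CPM with BCL2 and 29.4 to 88.8 CPM in HEL pos libraries, against 36.9 CPM in the HEL neg pool. In spleen it was 10.4 to 22.3 CPM with BCL2 and 17.4 to 40.8 CPM in HEL pos libraries, against 90.6 CPM in the HEL neg pool. The granulocyte sum in spleen was 0.709 to 2.28 CPM in BCL2 HEL pos and 57.2 to 183 CPM in HEL pos libraries, against 63.9 CPM in the HEL neg pool. The part of these cells in the differences from HEL neg cells was not tested. Y-linked transcripts, scarce in HEL pos libraries 392 and 399 and present in the HEL neg pools, were not tested for their part either.

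BCL2 HEL pos cells had lower Fcrl5, Lair1 and Cd300lf than HEL neg cells, 3 of 10 beside 8.1% of 10987 genes called lower. Fcrl5 was lower by -1.23 ± 0.21 on the log2 scale (edgeR adjusted p 0.00101) and below the HEL neg pool in all 9 BCL2 HEL pos libraries, which held in every alternative tried. Lair1 was lower by -1.44 ± 0.30 (edgeR adjusted p 0.00377), a call lost without the mLN HEL neg pool (-0.95, 0.0746). Cd300lf was lower by -0.89 ± 0.28 (edgeR adjusted p 0.0431), a call lost in 6 of 12 fits that left out 1 library, with -0.46 and an adjusted p of 0.304 without the spleen HEL neg pool. The other 5 were without the mLN HEL neg pool (-0.97, 0.0921), PP 926 (-0.86, 0.0706), spleen 926 (-0.80, 0.0751), spleen 950 (-0.80, 0.0581) and mLN 926 (-0.81, 0.0602). Fcgr2b lay above the HEL neg pool in all 9 BCL2 HEL pos libraries, with a log2 fold change of 0.28 ± 0.10 that was not called (edgeR adjusted p 0.071). DESeq2 called it (0.26, adjusted p 0.0334), and also a lower Cd22 (-0.23, 0.0379).

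The HEL neg pools also give the tissue differences in HEL neg cells. Fcrl5 was lower outside the spleen in them, with a log2 ratio of -1.21 in PP and -1.23 in mLN, against -0.98 and -1.01 in the HEL pos pools. Cd300lf was higher in PP in them, with a log2 ratio over spleen of 2.00, against 2.13 in the HEL pos pools. For Pirb the ratios were -0.31 in PP and 0.08 in mLN of HEL neg pools, against -1.18 and -1.47 in HEL pos pools. With 1 pool each these differences have no replicate check.

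Of 19 tested effectors that carry the signal of these receptors, 2 were called higher and 1 lower in PP against spleen of HEL pos cells, beside 7.94% and 7.43% of all genes, with a median log2 fold change of -0.04 against 0.02 over all genes, and 1 higher and 5 lower in mLN against spleen, beside 12.9% and 11.5% of all genes (median -0.13 against -0.01). Lyn, the kinase that phosphorylates ITIMs, was lower in both, with means of 412 CPM in both PP and mLN, against 736 CPM in spleen (log2 -0.80 ± 0.14, edgeR adjusted p 0.000487, and -0.83 ± 0.14, 0.000134). Pag1, an adaptor that anchors the inhibitory kinase Csk, was higher in PP (0.65 ± 0.14, 0.00245) and lower in mLN (-0.52 ± 0.14, 0.0084). In BCL2 HEL pos cells of PP, Inpp5d was higher than in spleen by 0.66 ± 0.12 (edgeR adjusted p 0.00107) and Ptpn6 by 0.40 ± 0.11 (0.0336). Dok3, an adaptor of inhibitory signals, was higher with BCL2 in spleen (0.68 ± 0.14, edgeR adjusted p 0.00297) and PP (0.57 ± 0.14, 0.0112). For BCL2 in spleen 2 of the 19 were called higher and 2 lower, beside 4.55% and 4.82% of all genes. The lower were Ptpn6 (-0.48 ± 0.11, edgeR adjusted p 0.00981) and the scarce Ubash3a (-2.955 ± 0.917, 0.0464). For BCL2 in PP 2 were called higher and 0 lower, beside 5.33% of all genes higher.

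Of 15 tested genes for ligands and ligand-making enzymes, 0 rose and 4 fell in PP against spleen of HEL pos cells (median -0.27), beside 7.94% of all genes higher and 7.43% lower. In mLN 1 rose and 6 fell against spleen (median -0.35), beside 12.9% higher and 11.5% lower. St6gal1, which makes the sialic acid linkage that Cd22 binds, fell in PP (-0.61 ± 0.13, edgeR adjusted p 0.00244). Sema4d, the ligand of Cd72, was 205 CPM in mLN against 468 CPM in spleen (log2 -1.19 ± 0.16, edgeR adjusted p 1.67e-05), and Cmah, which converts the sialic acid, was 78.8 CPM against 163 CPM (-1.05 ± 0.13, 5.39e-06). With BCL2, St6gal1 was higher in all 3 tissues, by 0.66 ± 0.13 in PP (edgeR adjusted p 0.00306), 0.63 ± 0.13 in mLN (0.00284) and 0.75 ± 0.13 in spleen (0.000654).

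Of 13 tested further inhibitory receptors of leukocytes, 3 rose and 4 fell in PP against spleen of HEL pos cells (median -0.32), and 4 rose and 4 fell in mLN (median 0.88), beside the same shares of all genes. Ceacam1 and Pecam1, adhesion receptors with ITIMs, fell in both, where Ceacam1 had 56.4 CPM in PP and 54.3 CPM in mLN, against 121 CPM in spleen, and Pecam1 had 151 CPM in PP and 120.0 CPM in mLN, against 257 CPM in spleen. Cd5, which dampens antigen receptor signals, was 11.7 CPM in PP and 17.8 CPM in mLN, against 3.57 CPM in spleen (log2 1.74 ± 0.38, edgeR adjusted p 0.00326, and 2.31 ± 0.38, 0.000112). With BCL2 it was 2.41 CPM in PP, against 11.7 CPM without (-2.32 ± 0.39, edgeR adjusted p 0.00105), and 2.02 CPM in mLN, against 17.8 CPM without (-3.13 ± 0.40, 4.88e-05). Pdcd1, the PD-1 receptor, was 22.6 CPM in mLN of HEL pos cells, while their spleen lay under the floor at 0.103 CPM. T cells also express Cd5 and Pdcd1, and Cd3e, a subunit of the T cell receptor complex, was 9.31, 10.5 and 2.00 CPM in mLN of HEL pos cells, against 0.114, 0.62 and 0.884 CPM in their spleen. In BCL2 HEL pos cells it was 0.28, 0.846 and 1.12 CPM in mLN, against 3.75, 3.94 and 2.15 CPM in spleen. The sum of 13 T and NK cell markers in HEL pos cells was 33.4 to 41.3 CPM in PP and 29.4 to 88.8 CPM in mLN, against 17.4 to 40.8 CPM in spleen, with 0 to 4 of the 13 at 0. With BCL2 it was 8.73 to 10.5 CPM in PP and 10.5 to 13.6 CPM in mLN. The part of T cells in the Cd5 and Pdcd1 values was not tested.

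Of 15 activating partners of the antigen receptor, 1 rose and 9 fell in PP against spleen of HEL pos cells (median -0.54), beside 7.94% of all genes higher and 7.43% lower. In mLN 2 rose and 9 fell (median -0.60), beside 12.9% and 11.5%. Cr2, a complement receptor of B cells, was 344 CPM in PP and 169 CPM in mLN, against 903 CPM in spleen (log2 -1.36 ± 0.18, edgeR adjusted p 3.64e-05, and -2.42 ± 0.19, 1.34e-08). Syk, the kinase that starts the antigen receptor signal, was 314 CPM in PP and 235 CPM in mLN, against 666 CPM in spleen (-1.05 ± 0.17, edgeR adjusted p 0.000182, and -1.50 ± 0.17, 1.23e-06). In BCL2 HEL pos cells 1 rose and 3 fell in PP (median -0.25), beside 4.81% of all genes higher and 2.53% lower, and 1 rose and 4 fell in mLN (median -0.26), beside 5.77% and 4.23%. These lists, like the 10 receptors, were chosen with earlier results known, and their medians are descriptions.

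Over the 21 libraries some receptors ran together, which is given as a description because all values share libraries, depth and groups. Pearson's r of log2 levels was 0.90 between Siglecg and Pirb and 0.81 between Cd22 and Fcgr2b. Cd72 ran against Siglecg (-0.68), Btla (-0.68), Cd22 (-0.60) and Fcgr2b (-0.56). Among 8121 other genes of at least 10 CPM, the likest to Cd22 were Gpr18 (0.96) and BC013712 (0.96), and to Fcgr2b Tspan13 (0.95) and H2-DMa (0.92). Siglecg and Pirb shared Fgd2 (0.94 with each), beside Ceacam1 for Siglecg (0.93) and 1110038D17Rik for Pirb (0.93). Cd72 was likest Bhlhe40 (0.93) and Bcar3 (0.90), Cd300lf likest Rab37 (0.91) and Ccr6 (0.89), and Fcrl5 likest Bid (0.87) and Dpp4 (0.80). Btla was likest Smpdl3a (0.84), and Fcrl1 likest Tceb3 (0.80) and Bnip2 (0.76). Lair1 lay under 10 CPM and was left out.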

How the data were processed

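The authors deposited raw counts of reads for each gene in 21 libraries of sorted mouse B cells. Per the labels' protocols, cells were sorted into TRIzol and sequenced as single-end reads on an Illumina instrument. A TruSeq kit and Nextera XT both appear there, and whether reads carry strand is not known. The submitters' processing notes name STAR, HTSeq, DESeq2 and the build mm10, without versions or settings. Each of the 21 count columns was matched to its library by the sample description in the labels, and 0 columns were unmatched.

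Genes were filtered with filterByExpr, scaled with TMM and tested in R 4.3.3 by edgeR 4.0.16 (quasi-likelihood F test). Adjustment was by Benjamini and Hochberg over all genes, and genes under 0.05 were called. Tissues, BCL2 HEL pos against HEL pos cells and the interactions share 1 model over 18 libraries and 6 groups, with 11419 genes and 12 residual degrees of freedom. Comparisons with HEL neg cells came from fits of 12 libraries with tissue as a covariate (8 residual degrees of freedom). Levels are CPM of TMM-scaled totals, and marker sums are CPM of plain totals. SE is the fold change divided by the square root of the F statistic. A count of 3 equals 0.259 to 0.507 CPM and covers counting error only. Alternatives were DESeq2 1.42.0, its size factors in edgeR, no low-count filter, a replicate block, each library left out, no pooled HEL pos libraries, no PP HEL pos pool and 399, only the pooled libraries, and plain totals for levels. The tests were also checked on simulated data with 200 changed genes. Coordinates and exon lengths are from GENCODE M21 and promoter windows from RefSeq.

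The 10 members, the 4 lists of related genes and the marker lists were chosen with earlier results of these data known. All 10 members are named in every comparison, and at most 4 called genes of a list, those with the smallest adjusted p. The labels give groups but not whether numbers mark animals.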

Additional observations from a re-analysis of the deposited data

Results flagged for a closer look

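For 4 named genes the mLN to spleen difference was itself different between BCL2 HEL pos and HEL pos cells in edgeR, with an adjusted p under 0.05. Cd22 gave a log2 difference of 0.81 (adjusted p 0.0331), with the mLN level at 950.1 CPM in BCL2 HEL pos cells and 536 CPM in HEL pos cells. Cr2 gave 1.42 (adjusted p 0.0236), from mLN levels of 295 CPM and 169 CPM and spleen levels of 587 CPM and 903 CPM in the same order. Bank1, an adaptor of B cell signalling, gave 0.75 (adjusted p 0.0334), with mLN levels of 502 CPM and 257 CPM. The spleen levels of Bank1, not given here, also enter that difference. Pdcd1 gave -7.51 (adjusted p 0.0276), a fitted value that depends on the prior count because spleen HEL pos cells lay at 0.103 CPM. The mLN levels of Pdcd1 were 1.38 CPM in BCL2 HEL pos cells and 22.6 CPM in HEL pos cells. Over the alternatives the call was lost in 12 of 17 for Cd22, 5 of 17 for Cr2, 11 of 17 for Bank1 and 9 of 17 for Pdcd1, with adjusted p up to 0.115, 0.0745, 0.109 and 0.252. Of the 3 beside Cd22, Cr2 and Bank1 belong to the list of activating partners and Pdcd1 to that of other inhibitory receptors.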

How the results depend on the processing

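The alternatives were followed for called values of the receptors and for the flagged mLN to spleen differences of Cr2, Bank1 and Pdcd1. None of these 46 called values changed direction under any alternative run. Other called values of the lists of related genes, such as those of Lyn, St6gal1, Cd5, Syk and Cr2 between tissues, were not followed. DESeq2 kept all 46, its size factors 45 and the fit without a filter 43. Fits that left out 1 library kept 254 of 336, and those without the pooled HEL pos libraries 24 of 32. Without the PP HEL pos libraries Pool and 399, 7 of 12 were kept, and with only the pooled libraries 0 of 3. With plain totals 54 of 60 group levels moved by less than the spread between libraries.

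The number of receptors called moved as follows. With DESeq2 it was 4 for PP against mLN in HEL pos cells, 6 for mLN against spleen and 2 for PP against mLN in BCL2 HEL pos cells, 3 and 1 for the interactions with mLN and PP against spleen, and 5 for BCL2 HEL pos against HEL neg cells. With no filter it was 5 and 2 for the same BCL2 HEL pos comparisons, 3 for BCL2 in spleen, 2 and 1 for the interactions, and 5 for HEL pos cells relative to HEL neg cells. With size factors it was 1 for BCL2 in PP. Without the pooled HEL pos libraries it was 1 for PP against mLN, 3 for BCL2 in spleen, 5 in mLN and 0 for the mLN interaction. Without the PP libraries Pool and 399 it was 0 for PP against mLN and 1 for BCL2 in PP. With only the pooled libraries it was 0 against HEL neg cells. Leaving out 1 library gave 0 to 1 for the mLN interaction and for PP against mLN in BCL2 HEL pos cells, 1 to 2 for PP against mLN in HEL pos cells and for BCL2 in PP, 2 to 3 in mLN and 1 to 3 in spleen, and, against HEL neg cells, 0 to 3 for HEL pos and 1 to 3 for BCL2 HEL pos cells.

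Deviations from the group means of libraries with the same number correlated at 0.0888 to 0.267 in BCL2 HEL pos and 0.0325 to 0.368 in HEL pos cells, and those with different numbers at -0.186 to 0.0779 and -0.27 to 0.113. In HEL pos cells the pools were counted as a number, and their pairs gave 0.275 to 0.368, while those of 392 and 399 gave 0.0325 to 0.18. Every same-number pair was positive, though not every one was over 0.1. The labels do not say that a number marks an animal, so they were not treated as pairs in the main fit. In BCL2 HEL pos cells every library correlated best with its own number, a hint from the data and not from the design, and in HEL pos cells all did except mLN 399. A replicate block gave 4 receptors for PP against mLN in HEL pos cells, 7 and 2 for mLN against spleen and PP against mLN in BCL2 HEL pos cells, and 4 for the mLN interaction, and kept 30 of 30 calls. Over all genes the block gave 1634, 1388, 1773 and 480 calls for PP against mLN in HEL pos cells and for PP against spleen, mLN against spleen and PP against mLN in BCL2 HEL pos cells, where the fit without it gave 1012, 838, 1142 and 132.

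Over all genes, PP against mLN in BCL2 HEL pos cells gave 249 calls with DESeq2 and 395 with no filter. The mLN interaction gave 163, 191, 192 (block) and 8 (no pools) instead of 44, the PP against spleen interaction 60, 114, 48, 3 and, without PP Pool and 399, 0 instead of 1, and the PP against mLN interaction 28, 111, 13, 0 and 0 instead of 1. HEL pos against HEL neg cells gave 1551, 1495 and, with only the pools, 73 instead of 990. PP against mLN in HEL pos cells gave 551 without the pools and 209 without PP Pool and 399, which also gave 640 instead of 1756 for PP against spleen and 255 instead of 1150 for BCL2 in PP.

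Uncalled values of at least 0.1 in size were followed too, and some changed sign. Without the pools these were Lair1 in PP against mLN of HEL pos cells (-0.58), Fcrl5 with BCL2 in mLN (0.22) and PP (0.083) and Cd300lf in the PP against mLN interaction (-0.067). Without PP Pool and 399 it was Lair1 in PP against mLN (-0.45), and with only the pools Fcrl5 against HEL neg cells (0.057). Leaving out 1 library gave ranges across 0 in HEL pos cells for Lair1 in PP against mLN (-1.25 to 1.00) and Cd300lf in mLN against spleen (-0.44 to 0.77). With BCL2 they were -0.20 to 0.90 for Lair1 and -0.29 to 0.23 for Fcrl5 in mLN, and -0.71 to 0.10 for Fcrl5 in PP. The PP against mLN interaction gave -0.35 to 1.89 for Lair1, -0.34 to 0.53 for Cd300lf and -0.61 to 0.22 for Fcrl5. Against HEL neg cells, HEL pos cells gave -0.090 to 0.48 for Siglecg and -0.50 to 0.15 for Btla, and BCL2 HEL pos cells -0.52 to 0.10 for Pirb. The cause was not tested. Depth limits Lair1, where a PP library had a single count.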
